A study of Mus musculus with 6 samples.

Results

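Ptprn, Ramp3 and Sdcbp2 are 3 of the 18288 genes of the deposited table. They were chosen by their values in the comparison made here: each was far higher in Nae1T-KO than in Nae1WT libraries, was low in Nae1WT, and is no classic T cell gene. Those values are therefore given as a description, without a test of the 3 genes.

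The 6 RNA-seq libraries, 3 Nae1T-KO and 3 Nae1WT, come from CD8+ T cells of mice, taken at day 2 of activation in vitro. Nae1 encodes a subunit of the enzyme that activates NEDD8, a ubiquitin-like protein that cullin ubiquitin ligases need for their activity. The labels give each genotype by its name alone, and do not say what drives the deletion, which strain or age the mice had, or whether each replicate is a mouse of its own. The p-values therefore cover only the spread between these samples. By Xist, Nae1T-KO replicates 1 and 2 and Nae1WT replicate 3 were female and the other libraries male. Nae1 itself fell by 2.27 on the log2 scale (limma adjusted p = 5.028e-07), with 338 to 390 normalized counts per Nae1T-KO library against 1601 to 1882 per Nae1WT library. Its partner Uba3 had a log2 difference of 0.02 (limma adjusted p = 0.884). Libraries held about 15628300 to 25444700 reads. The 10 CD8 T cell markers, Cd8a and Cd8b1 among them, summed to 58543 to 62553 in Nae1T-KO and 59973 to 65844 in Nae1WT libraries. Ptprc was the highest of them. Cd5 and Zap70 rose by 0.53 and 0.28 on the log2 scale (limma adjusted p = 0.0104 and 0.0227). Cd3g fell by 0.51 (limma adjusted p = 0.00365), and no other of the 10 had an adjusted p under 0.05.

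The 3 genes encode membrane-associated proteins with separate jobs. PTPRN is a receptor-type tyrosine phosphatase without catalytic activity that sits in the membrane of dense-core secretory vesicles of endocrine cells and neurons, and is a target of autoantibodies in type 1 diabetes. RAMP3 is a single-pass accessory protein that travels with receptors of the calcitonin family to the cell surface and sets which peptide they bind: with CALCRL it makes a receptor for adrenomedullin, which signals through Gs and cyclic AMP. SDCBP2, or syntenin-2, is a scaffold with paired PDZ domains and a close relative of SDCBP, which binds syndecans and phosphoinositides and takes part in sorting cargo into exosomes.

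Ptprn was the member with the widest gap. It had 299, 394 and 452 normalized counts (reads divided by the library's size factor) in Nae1T-KO replicates 1 to 3. In Nae1WT replicates 1 to 3 it had 16.0, 42.9 and 22.1. Each Nae1T-KO library was above each Nae1WT library, and the lowest Nae1T-KO value was 6.97 times the highest Nae1WT value. The group means were 382 ± 77.6 and 27.0 ± 14.1 (SD, n = 3 each), a 14.2-fold difference. On the log2(normalized count + 1) scale, where changes of low genes come out smaller, the difference was 3.87 (SE 0.32), the fourth largest of 13819 tested genes by size of increase. Reads behind these values numbered 267, 447 and 448 against 13, 41 and 29.

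For Ramp3, the Nae1T-KO libraries held 291, 234 and 219 normalized counts, from 260, 266 and 217 reads. The Nae1WT values were 30.7, 31.4 and 73.1, from 25, 30 and 96 reads. The groups did not overlap, and Nae1WT replicate 3 stood above the other Nae1WT libraries. The means were 248 ± 37.8 and 45.0 ± 24.3 (SD, n = 3 each), a 5.51-fold difference, or 2.55 (SE 0.31) on the log2 scale. Without Nae1WT replicate 3 the log2 difference was 2.95.

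Sdcbp2 was the steadiest of the set. Its Nae1T-KO values were 182, 154 and 174 normalized counts, from 163, 175 and 172 reads. The Nae1WT libraries held 27.0, 44.95 and 28.9, from 22, 43 and 38 reads. Again no Nae1WT library reached a Nae1T-KO library, and the lowest Nae1T-KO value was 3.43 times the highest Nae1WT value. The means were 170 ± 14.4 and 33.6 ± 9.85 (SD, n = 3 each), a 5.06-fold difference, or 2.34 (SE 0.22) on the log2 scale.

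**Figure D1:**
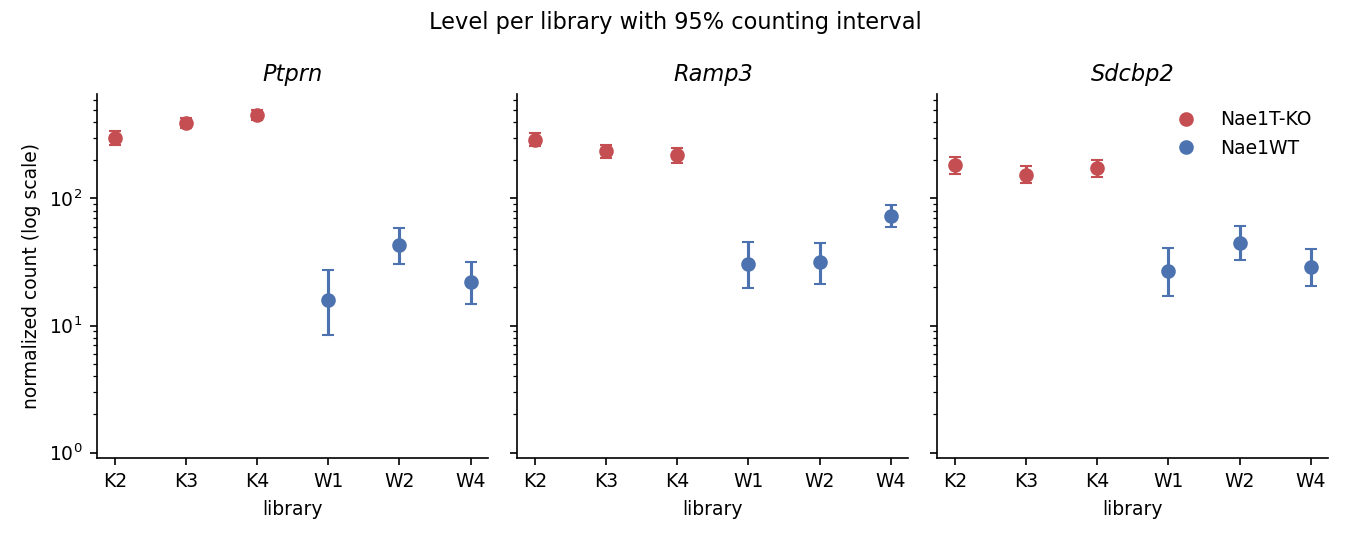
Normalized count of Ptprn, Ramp3 and Sdcbp2 in each library on a log axis, for Nae1T-KO (K2, K3 and K4, replicates 1 to 3) and Nae1WT (W1, W2 and W4, replicates 1 to 3); bars are exact Poisson 95% intervals of the reads. In each panel all Nae1T-KO intervals lie above all Nae1WT intervals, and Nae1WT replicate 3 is highest of its group for Ramp3 only.

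Counting error was small beside these gaps. The exact Poisson 95% intervals, which cover counting error only, ran from 264 to 337 for the lowest Nae1T-KO value of Ptprn and from 30.8 to 58.1 for its highest Nae1WT value. For Ramp3 the same bounds were 191 to 250 and 59.2 to 89.3. For Sdcbp2 they were 132 to 179 and 32.5 to 60.6. The spread between Nae1T-KO libraries was 20.3% of the mean for Ptprn, 15.2% for Ramp3 and 8.46% for Sdcbp2, and between Nae1WT libraries it was 52.3%, 53.9% and 29.3%.

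All 3 genes had at least 10 normalized counts in every library, so none passed the filter on low values through the Nae1T-KO libraries alone. Across the 9 pairs of a Nae1T-KO with a Nae1WT library, the ratio ranged from 6.97 to 28.3 for Ptprn, from 3.00 to 9.47 for Ramp3 and from 3.43 to 6.75 for Sdcbp2. Within the 4 pairs of the same sex the ranges were 10.6 to 28.3, 3.21 to 7.14 and 3.86 to 6.43. As the groups did not overlap for any of the 3 genes, their order had to be the same within each sex. The same-sex ranges are therefore a description and no check of sex. Of all tested genes, 2307 (16.7%) had every Nae1T-KO library above every Nae1WT library. This share is background only, since the 3 genes were selected on this contrast. In bulk RNA, more cells that express a gene and more RNA per cell cannot be told apart.

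The libraries did not rank the 3 genes alike. Within Nae1T-KO, Ptprn was lowest in replicate 1, where Ramp3 and Sdcbp2 were highest. Within Nae1WT, replicate 2 was highest for Ptprn and Sdcbp2, and replicate 3 for Ramp3. Over the 6 libraries Pearson's r of log2 values was 0.91 for Ptprn with Ramp3, 0.99 for Ptprn with Sdcbp2 and 0.91 for Ramp3 with Sdcbp2. All 3 values mostly restate the gap between groups on which the genes were chosen.

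Levels can be compared between genes only per length. Divided by exon length (4.249 kb for Ptprn, 1.38 kb for Ramp3 and 1.399 kb for Sdcbp2), the mean Nae1T-KO level was 180 normalized counts per kb for Ramp3. It was 122 per kb for Sdcbp2 and 89.8 per kb for Ptprn, so the member with the widest gap had the lowest level per length. In Nae1WT the levels per kb were 32.6, 24.0 and 6.35 in the same order. Ramp3 was above Sdcbp2 in 5 of the 6 libraries, and in Nae1WT replicate 2 Sdcbp2 was higher, at 32.1 against 22.7 per kb. Ptprn was lowest in each of the 6 libraries. Among tested genes with a length, 45.7% lay below Ptprn, 52.2% below Sdcbp2 and 62.0% below Ramp3 in Nae1T-KO. In Nae1WT the shares were 7.97%, 21.9% and 26.0%. Per length, all 3 were thus among the lower tested genes in Nae1WT and near the middle in Nae1T-KO.

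Few genes met a like description. An Nae1WT mean under 50 normalized counts with a mean at least 4-fold higher in Nae1T-KO was found for 43 of 13819 tested genes (0.311%), the 3 genes and 40 others. Most were low: the median Nae1T-KO mean of the 43 was 42.8 and the median Nae1WT mean 7.98, and 16 reached 10 normalized counts in no Nae1WT library. Only 9 of the 43 had a Nae1T-KO mean of 150 or more. By that mean Ptprn ranked 4, Ramp3 6 and Sdcbp2 9, while by fold they ranked 7, 26 and 31. These ranks use the values on which the genes were chosen.

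**Figure D2:**
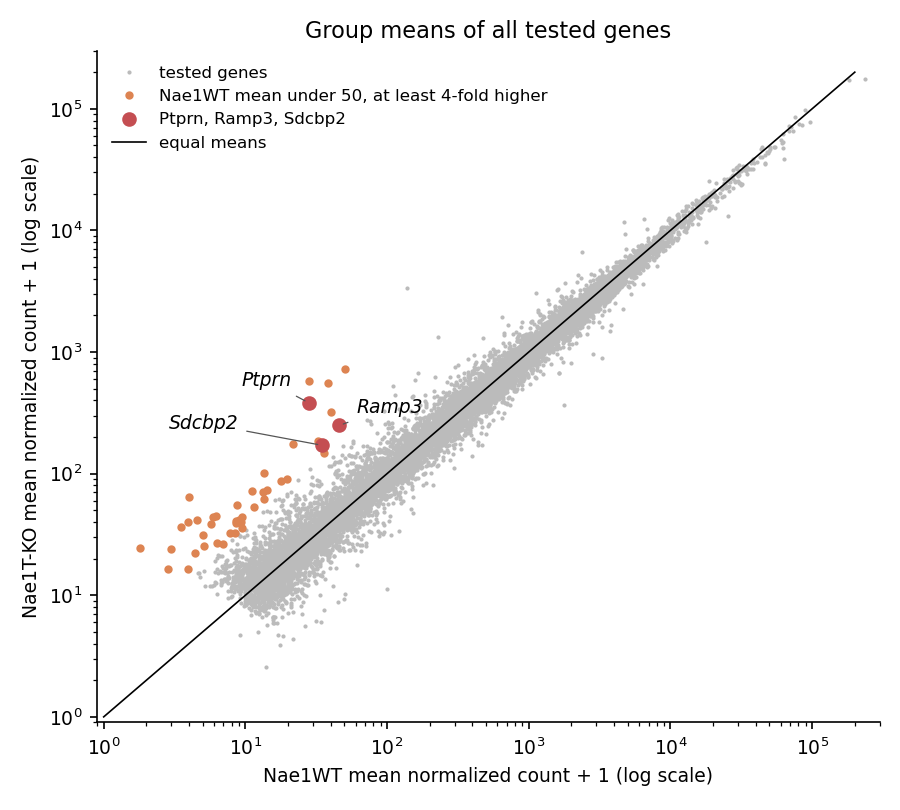
Mean normalized count + 1 of each of the 13819 tested genes in Nae1WT (horizontal) and Nae1T-KO (vertical), both on log axes, with the line of equal means. The 43 genes with an Nae1WT mean under 50 and a mean at least 4-fold higher in Nae1T-KO are orange or red; Ptprn, Ramp3 and Sdcbp2 (red) lie among the 9 of them with a Nae1T-KO mean of 150 or more.

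The genes lie on separate chromosomes. In GRCm38 with GENCODE M21 annotation, Ptprn (ENSMUSG00000026204.15) spans chr1:75247027-75264502 on the minus strand, with 23 exons in its longest transcript. Ramp3 (ENSMUSG00000041046.7) spans chr11:6658521-6677475 on the plus strand, with 4 exons. Sdcbp2 (ENSMUSG00000027456.8) spans chr2:151572622-151590005 on the plus strand, with 9 exons. Ptprn overlaps the antisense gene Gm28294, and Ramp3 overlaps the pseudogene Gm11978 on the other strand. Neither is analysed here, and the use of strand in counting is not given in the sources used here, so reads of the overlap cannot be assigned to one of them. Of the 50-base words of the exons, 2.15% were shared with Gm28294 for Ptprn, 3.99% with Gm11978 for Ramp3 and 0 of 1350 with any other gene for Sdcbp2.

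Sequence next to the start sites is shown so that the motif search can be read against it. Each line gives 100 bases without GENCODE exons from just before a RefSeq start of GRCm38.p6, on the gene's strand, 5′ to 3′. A match to any of 7 searched motifs is in capitals. Ptprn is from chr1:75264214-75264313, which lies within the longer GENCODE span. Ramp3 is from chr11:6658421-6658520. Sdcbp2 is from chr2:151572522-151572621, which ends just before the GENCODE start.
Ptprn: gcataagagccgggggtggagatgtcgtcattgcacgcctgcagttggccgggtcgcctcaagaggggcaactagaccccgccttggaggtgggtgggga
Ramp3: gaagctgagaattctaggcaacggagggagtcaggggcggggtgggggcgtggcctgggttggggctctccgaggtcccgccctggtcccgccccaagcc
Sdcbp2: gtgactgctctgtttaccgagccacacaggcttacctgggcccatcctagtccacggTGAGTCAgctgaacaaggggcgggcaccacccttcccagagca
The stretches were 65%, 71% and 61% G or C. In the RefSeq windows from 250 bases before to 50 after the start, the shares were 60.3%, 63.7% and 59.0%, against a median of 52.7% over 32851 windows. All 3 were above that median.

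The capitals in Sdcbp2 mark TGAGTCA, which matches the AP-1 motif TGANTCA and begins 43 bases before the GENCODE start. Of all 32851 windows, 7.81% held that motif on either strand. No match was found in the windows used above for Ptprn and Ramp3. A further RefSeq window of Ptprn, inside the gene, held the NFAT core GGAAAA, which 23.4% of windows hold. The antioxidant response element core TGACNNNGC (12.4% of windows), the cyclic AMP response element TGACGTCA (1.79%), the ATF4 composite site TGATGCAA (0.895%), the interferon response core GAAANNGAA (8.56%) and the hypoxia response core ACGTG (19.6%) had no match in any of these windows. The antioxidant and AP-1 patterns can overlap. A match is a run of letters and no site of binding, and no match says only that these letters are not in these windows.

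Genes next to the 3 were called at about the share of all genes. Within 500 kb of the 3 starts, 40 genes were tested, of which 2 (5.0%) were called higher and 2 (5.0%) lower (limma adjusted p under 0.05). Over all tested genes 903 (6.53%) were called higher and 854 (6.18%) lower, with a median log2 difference of -0.01. Within 500 kb of the start of Ptprn, 18 genes were tested, 1 was called higher and 1 lower, with a median of 0.03. The nearest genes of the table with a start on either side, Dnajb2 and Dnpep, had log2 differences of 0.02 and 0.10 (limma adjusted p = 0.926 and 0.527). The gene called higher was Tuba4a, a tubulin gene, at 0.26 (SE 0.07; limma adjusted p = 0.0289), a call lost without Nae1T-KO replicate 1 or any 1 Nae1WT library, at adjusted p up to 0.108, or with sex as a covariate (0.0526).

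The one called lower was Wnt10a, which encodes a secreted Wnt ligand and starts 473 kb away. Its normalized counts were 2.24, 10.6 and 12.1 in Nae1T-KO replicates 1 to 3 and 70.0, 44.95 and 30.5 in Nae1WT. Its log2 value fell by 2.57 (SE 0.54; limma adjusted p = 0.0141), a move opposite to that of Ptprn, and without Nae1WT replicate 2 its adjusted p was 0.0502.

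Near Ramp3, 14 genes were tested, 0 were called higher and 1 lower, with a median of -0.01. At an unadjusted p under 0.05, limma had 2 higher, while edgeR, DESeq2 and limma-voom each called 0 higher. Tbrg4, the nearest of the table, had a log2 difference of 0.17 (limma adjusted p = 0.0797). No gene of the table started within 500 kb on the other side. Ppia, which encodes cyclophilin A, fell by 0.40 on the log2 scale (SE 0.09; limma adjusted p = 0.0209). That call was lost without any 1 of Nae1T-KO replicates 1 and 2 and Nae1WT replicates 2 and 3, at adjusted p up to 0.0882.

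Near Sdcbp2, 8 genes were tested, 1 was called higher and 0 lower, with a median of 0.27. No gene was lower at an unadjusted p under 0.05 with limma, nor called lower by edgeR, DESeq2 or limma-voom (0 each). The called gene, Fkbp1a, was also the nearest of the table. It encodes the FK506-binding immunophilin, starts 30.1 kb away and rose by 0.33 (SE 0.06, limma adjusted p = 0.00917, and 0.0528 without Nae1WT replicate 3). On the other side Tmem74b had a log2 difference of -0.81 (limma adjusted p = 0.321). Just outside the window, 533 kb from the start of Sdcbp2, lies Srxn1, the sulfiredoxin gene, named after its values were seen. It had 3003, 3239 and 3878 normalized counts in Nae1T-KO and 112, 144 and 157 in Nae1WT libraries, and rose by 4.61 (SE 0.14; limma adjusted p = 1.411e-07).

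**Figure D3:**
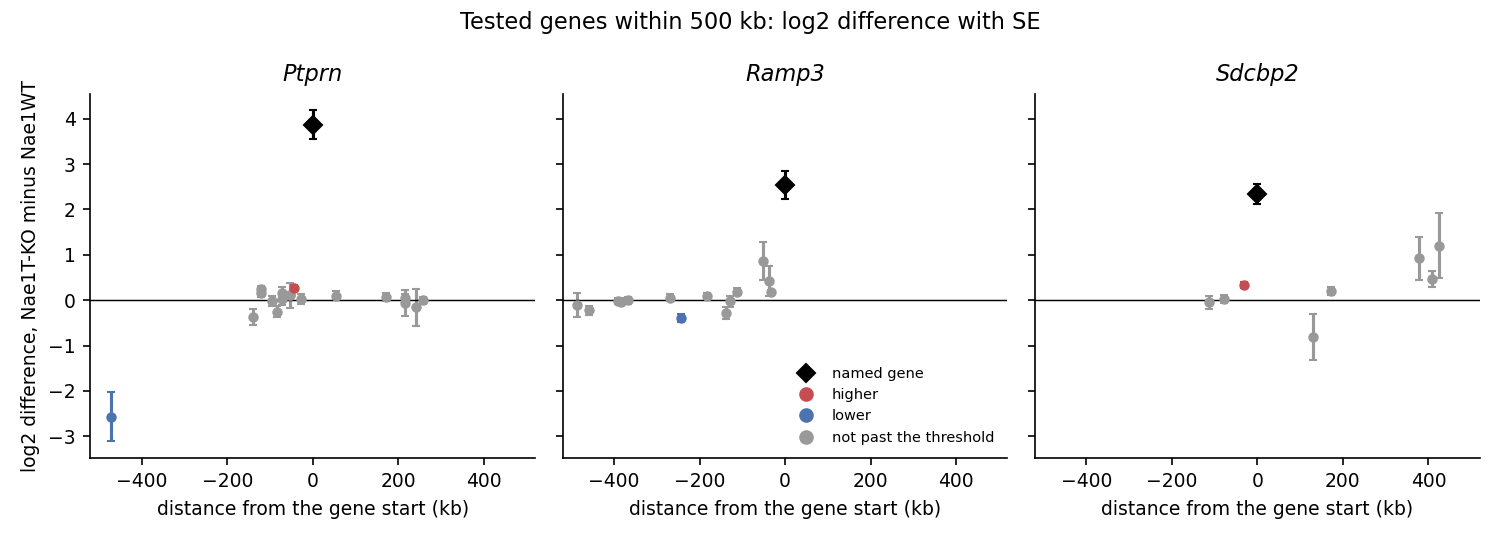
Log2 difference with SE (vertical) of tested genes against the distance of their start from the start of Ptprn, Ramp3 or Sdcbp2 in kb (horizontal, within 500 kb). Black diamonds are the 3 genes, at 3.87, 2.55 and 2.34; neighbours called higher are red, lower blue and not past the threshold grey, and Wnt10a at -2.57 is the neighbour farthest from 0.

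A list of 21 PTPRN partners, dense-core vesicle genes and regulators such as Rest held 7 tested genes. Of these, 0 were called in either direction, with a median log2 difference of -0.04. With 7 genes this count cannot be set apart from the 6.53% called higher and 6.18% lower over all tested genes. None had an unadjusted p under 0.05 with limma, and edgeR, DESeq2 and limma-voom called 0. Pcsk1, a prohormone convertase of these vesicles, had 29.1, 35.3 and 32.3 normalized counts in Nae1T-KO and 29.5, 27.2 and 50.3 in Nae1WT libraries. Rest, the repressor of neuronal genes, had a log2 difference of 0.06 (limma adjusted p = 0.685). Chga, a defining granin of endocrine granules, was at 0 to 3.36 in Nae1T-KO and 1.23 to 7.32 in Nae1WT libraries. The paralog Ptprn2 and the partner Resp18 are not analysed here.

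Markers of neuroendocrine and neuronal cells bear on the same result. The 6 of 14 in the table summed to 70.7 to 109 normalized counts in Nae1T-KO and 44.2 to 74.2 in Nae1WT libraries, mostly Tubb3, and 0 of 2 tested were called. Tubb3 was at 46.5 to 64.9 in Nae1T-KO and 25.1 to 41.8 in Nae1WT libraries, without overlap (limma adjusted p = 0.0931). Chga, Insm1, Scg2 and Elavl3 were each under 10 in every library. The part of such cells in the values of Ptprn was not tested.

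Of 8 other receptor-type tyrosine phosphatases tested, 1 was called higher and 0 lower, with a median of 0.19. With 8 genes these counts cannot be set apart from the 6.53% called higher and 6.18% lower over all tested genes. At an unadjusted p under 0.05 limma had 1 lower, and edgeR, DESeq2 and limma-voom called 0 lower. The list also holds Ptprcap, the CD45-associated protein, which is no phosphatase and had a log2 difference of -0.24 (limma adjusted p = 0.0527; called lower by DESeq2). Ptprs, the one called, rose by 0.24 (SE 0.07; limma adjusted p = 0.0399), and lost its call on leaving out any 1 library except Nae1T-KO replicate 3 (adjusted p up to 0.161) and with sex as a covariate (0.0514). Ptprc, which encodes CD45, had a log2 difference of -0.14 (limma adjusted p = 0.251). Among the 8, log2 differences ran from -0.63 for Ptprk to 0.53 for Ptprf, neither past the threshold (limma adjusted p = 0.0934 and 0.169), against 3.87 for Ptprn.

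The wider machinery of regulated exocytosis was mixed, with 3 of 20 tested genes (15%) called higher, 2 (10%) lower and a median of -0.04, beside 6.53% and 6.18% of all tested genes. Sytl2, a RAB27 effector that tethers granules at the membrane, had 151, 200 and 148 normalized counts in Nae1T-KO and 54.0, 72.1 and 72.3 in Nae1WT libraries. It rose by 1.32 (SE 0.19; limma adjusted p = 0.00204). Its relative Sytl3 rose by 0.75 (SE 0.11; limma adjusted p = 0.00252) and the syntaxin Stx4a by 0.50 (SE 0.10; limma adjusted p = 0.0113). Another relative, Sytl1, fell by 0.58 on the log2 scale (SE 0.15; limma adjusted p = 0.0300). The vesicle SNARE Vamp7 fell by 0.66 on that scale (SE 0.15; limma adjusted p = 0.0215). Both falls lost their call on leaving out single libraries. For Sytl1 these were Nae1T-KO replicate 1 or 2 or Nae1WT replicate 1 or 3, with adjusted p up to 0.117. For Vamp7 they were Nae1T-KO replicate 2 or 3 or Nae1WT replicate 2, with adjusted p up to 0.0870.

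Around Ramp3, its receptor partner was higher in Nae1T-KO and a ligand gene lower. Calcrl, the receptor that RAMP3 accompanies, had normalized counts of 833, 667 and 753 in Nae1T-KO and of 333, 399 and 494 in Nae1WT. The groups did not overlap, and Calcrl rose by 0.89 (SE 0.14; limma adjusted p = 0.00408; called in 19 of 19 alternatives). Calcb, which encodes a calcitonin gene-related peptide, had 31.3, 30.8 and 34.3 against 82.3, 76.3 and 67.8, and its log2 value fell by 1.20 (SE 0.20; limma adjusted p = 0.00469). These were the only 2 called among 7 tested genes of the RAMP system, whose median was -0.03. That is 14.3% higher and 14.3% lower, beside 6.53% and 6.18% of all tested genes. With 7 genes these counts cannot be set apart from the shares over all genes.

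Neither of the other RAMP genes was called. Ramp1, whose product makes the calcitonin gene-related peptide receptor with CALCRL, had 23.5, 25.6 and 48.5 normalized counts in Nae1T-KO and 23.3, 28.2 and 26.7 in Nae1WT libraries. Its log2 difference was 0.24 (SE 0.31; limma adjusted p = 0.665), and without Nae1T-KO replicate 3 it was -0.08. Ramp2 was too low to test, at 6.71 to 11.1 in Nae1T-KO and 3.81 to 6.27 in Nae1WT libraries, without overlap. Per kb of exon, the Nae1T-KO means were 180 for Ramp3, 10.8 for Ramp1 and 2.6 for Ramp2, and the Nae1WT means 32.6, 8.63 and 1.64. Ramp3 thus had the highest level per length of the RAMP genes in both groups. Calcrl stood at 154 per kb in Nae1T-KO, below Ramp3, and at 83.7 in Nae1WT, above Ramp3.

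The ligand gene Adm (adrenomedullin) was near the filter, at 9.09 to 10.6 normalized counts in Nae1T-KO and 6.09 to 14.6 in Nae1WT libraries. Its log2 difference was 0.09 (limma adjusted p = 0.915), and -0.17 without Nae1WT replicate 3. Calcr, Calca, Adm2, Iapp and Ackr3 are not analysed here.

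**Figure D4:**
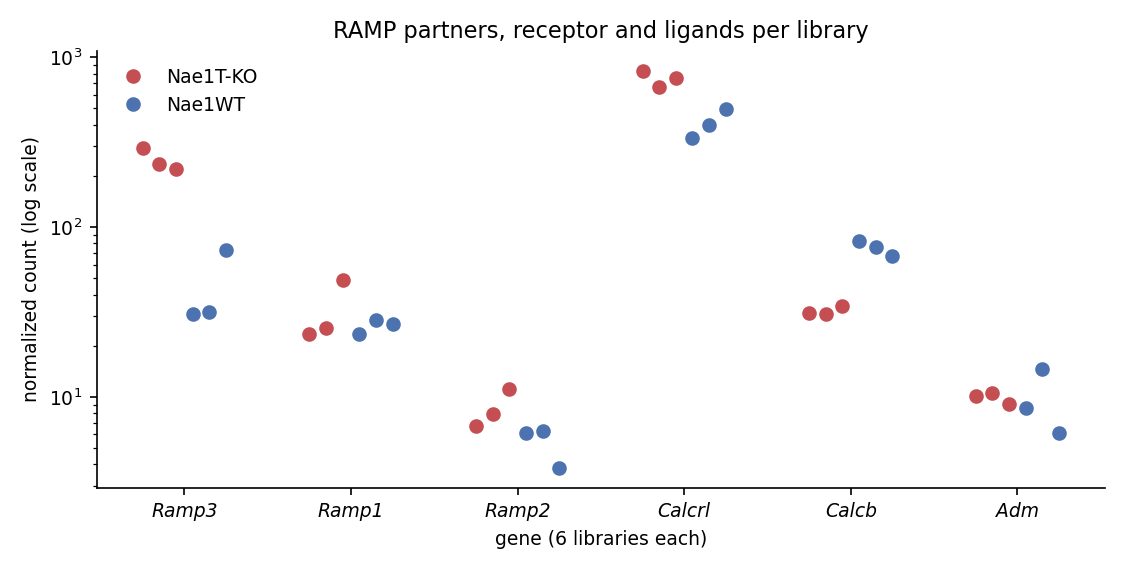
Normalized count (log axis) of Ramp3, Ramp1, Ramp2, the receptor gene Calcrl and the ligand genes Calcb and Adm in each library, one point per library, Nae1T-KO red and Nae1WT blue, replicates 1 to 3 from left to right. The groups do not overlap for Ramp3, Calcrl, Calcb and, at 3.81 to 11.1 in all libraries, Ramp2; of these Calcb alone is higher in Nae1WT (67.8 to 82.3 against 30.8 to 34.3).

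Calcrl and Ramp2 are also endothelial markers. The 8 of 12 endothelial markers in the table summed to 1267 to 1418 normalized counts in Nae1T-KO and 864 to 921 in Nae1WT libraries, and Calcrl made up the largest part. Pecam1 had 393, 444 and 388 against 375, 305 and 252, without overlap, and a log2 difference of 0.41 (limma adjusted p = 0.0820). Egfl7 was at 105 to 144 and overlapped, Vwf was at 9.82 to 31.3, and Kdr, Tek and Esam were each under 10 in every library. Cdh5, Tie1, Emcn and Cldn5 are not analysed here. The part of endothelial cells in the values of Ramp3 was not tested.

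Downstream of Gs, 6 of 24 tested genes (25%) were called higher and 1 (4.17%) lower, beside 6.53% and 6.18% of all tested genes, with a median log2 difference of 0.10. The phosphodiesterases Pde4b and Pde4d, which break down cyclic AMP, rose by 0.96 (SE 0.12; limma adjusted p = 0.00116) and 0.76 (SE 0.10; limma adjusted p = 0.00121). Pde8a, another phosphodiesterase, rose by 0.62 (SE 0.15; limma adjusted p = 0.0227), with its call lost without Nae1T-KO replicate 1 or 2 or Nae1WT replicate 2 or 3 (adjusted p up to 0.0873). The type II regulatory subunit genes of protein kinase A moved apart. Prkar2a fell by 0.54 on the log2 scale (SE 0.09; limma adjusted p = 0.00418). Prkar2b rose by 0.87 (SE 0.25; limma adjusted p = 0.0467). The call of Prkar2b was the least stable: edgeR gave an adjusted p of 0.0623 and limma-voom 0.0503, and it was lost on leaving out any 1 library except Nae1WT replicate 3 (limma adjusted p up to 0.138) and with sex as a covariate (limma adjusted p = 0.0749). Also called were Gnas, the gene of the Gs alpha subunit itself, at 0.23 and the receptor kinase gene Grk6 at 0.24 (limma adjusted p = 0.0414 and 0.0404). Each lost its call in 5 of 6 fits without 1 library, at adjusted p up to 0.144 and 0.137, and kept it without Nae1T-KO replicate 2 for Gnas and replicate 3 for Grk6. With sex as a covariate both were lost (limma adjusted p = 0.0583 and 0.0760).

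Sdcbp, the relative of Sdcbp2, was not called. It had 2680, 2447 and 2819 normalized counts in Nae1T-KO and 2741, 3360 and 3133 in Nae1WT libraries. The groups overlapped and its log2 difference was -0.21 (SE 0.09; limma adjusted p = 0.137). Per kb of exon Sdcbp stood at 384 in Nae1T-KO and 446 in Nae1WT, against 122 and 24.0 for Sdcbp2, so Sdcbp was above Sdcbp2 per length in both groups.

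Among 26 tested genes of syntenin partners and exosomes, 6 (23.1%) were called higher and 0 lower, beside 6.53% and 6.18% of all tested genes, with a median of 0.18. At an unadjusted p under 0.05 limma had 1 lower, and edgeR, DESeq2 and limma-voom each called 0 lower. Sox4, a transcription factor that SDCBP binds, had 501, 458 and 359 normalized counts in Nae1T-KO and 84.7, 133 and 120 in Nae1WT libraries. It rose by 1.97 (SE 0.18; limma adjusted p = 0.000338). The tetraspanin Cd9 had 957, 831 and 991 against 459, 498 and 499, and rose by 0.93 (SE 0.09; limma adjusted p = 0.000393). Both were called in 19 of 19 alternatives.

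Of the syndecans, the membrane proteoglycans that syntenins bind, Sdc3 had 62.6, 46.7 and 57.6 normalized counts in Nae1T-KO and 30.7, 28.2 and 24.4 in Nae1WT libraries. It rose by 0.97 (SE 0.23; limma adjusted p = 0.0222), with the call lost without Nae1T-KO replicate 1 or 3 or Nae1WT replicate 2 or 3 (adjusted p up to 0.0712). Sdc1 and Sdc4 had log2 differences of 0.20 and 0.61 (limma adjusted p = 0.542 and 0.30), and Sdc2 is not analysed here. The remaining called genes were the tetraspanin Cd151 at 0.63, the ESCRT subunit gene Chmp4b at 0.40 and the phosphoinositide kinase gene Pip5k1a at 0.26 (limma adjusted p = 0.0384, 0.00602 and 0.0351). Cd151 lost its call without any 1 library except Nae1T-KO replicate 2 (adjusted p up to 0.115), and Pip5k1a without any 1 except Nae1T-KO replicate 3 (up to 0.133). With sex as a covariate both were lost (limma adjusted p = 0.0693 and 0.0641). Pdcd6ip (ALIX), Cd63 and Arf6, named parts of the syntenin exosome route, had log2 differences of 0.16, 0.36 and 0.11 (limma adjusted p = 0.194, 0.50 and 0.451).

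Over all 92 tested genes of these 6 lists, 17 (18.5%) were called higher and 4 (4.35%) lower, beside 6.53% and 6.18% of all tested genes, with a median log2 difference of 0.06. With sex as a covariate 12 were called higher and 6 lower. These counts describe the lists, and no list was tested as a set.

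**Figure D5:**
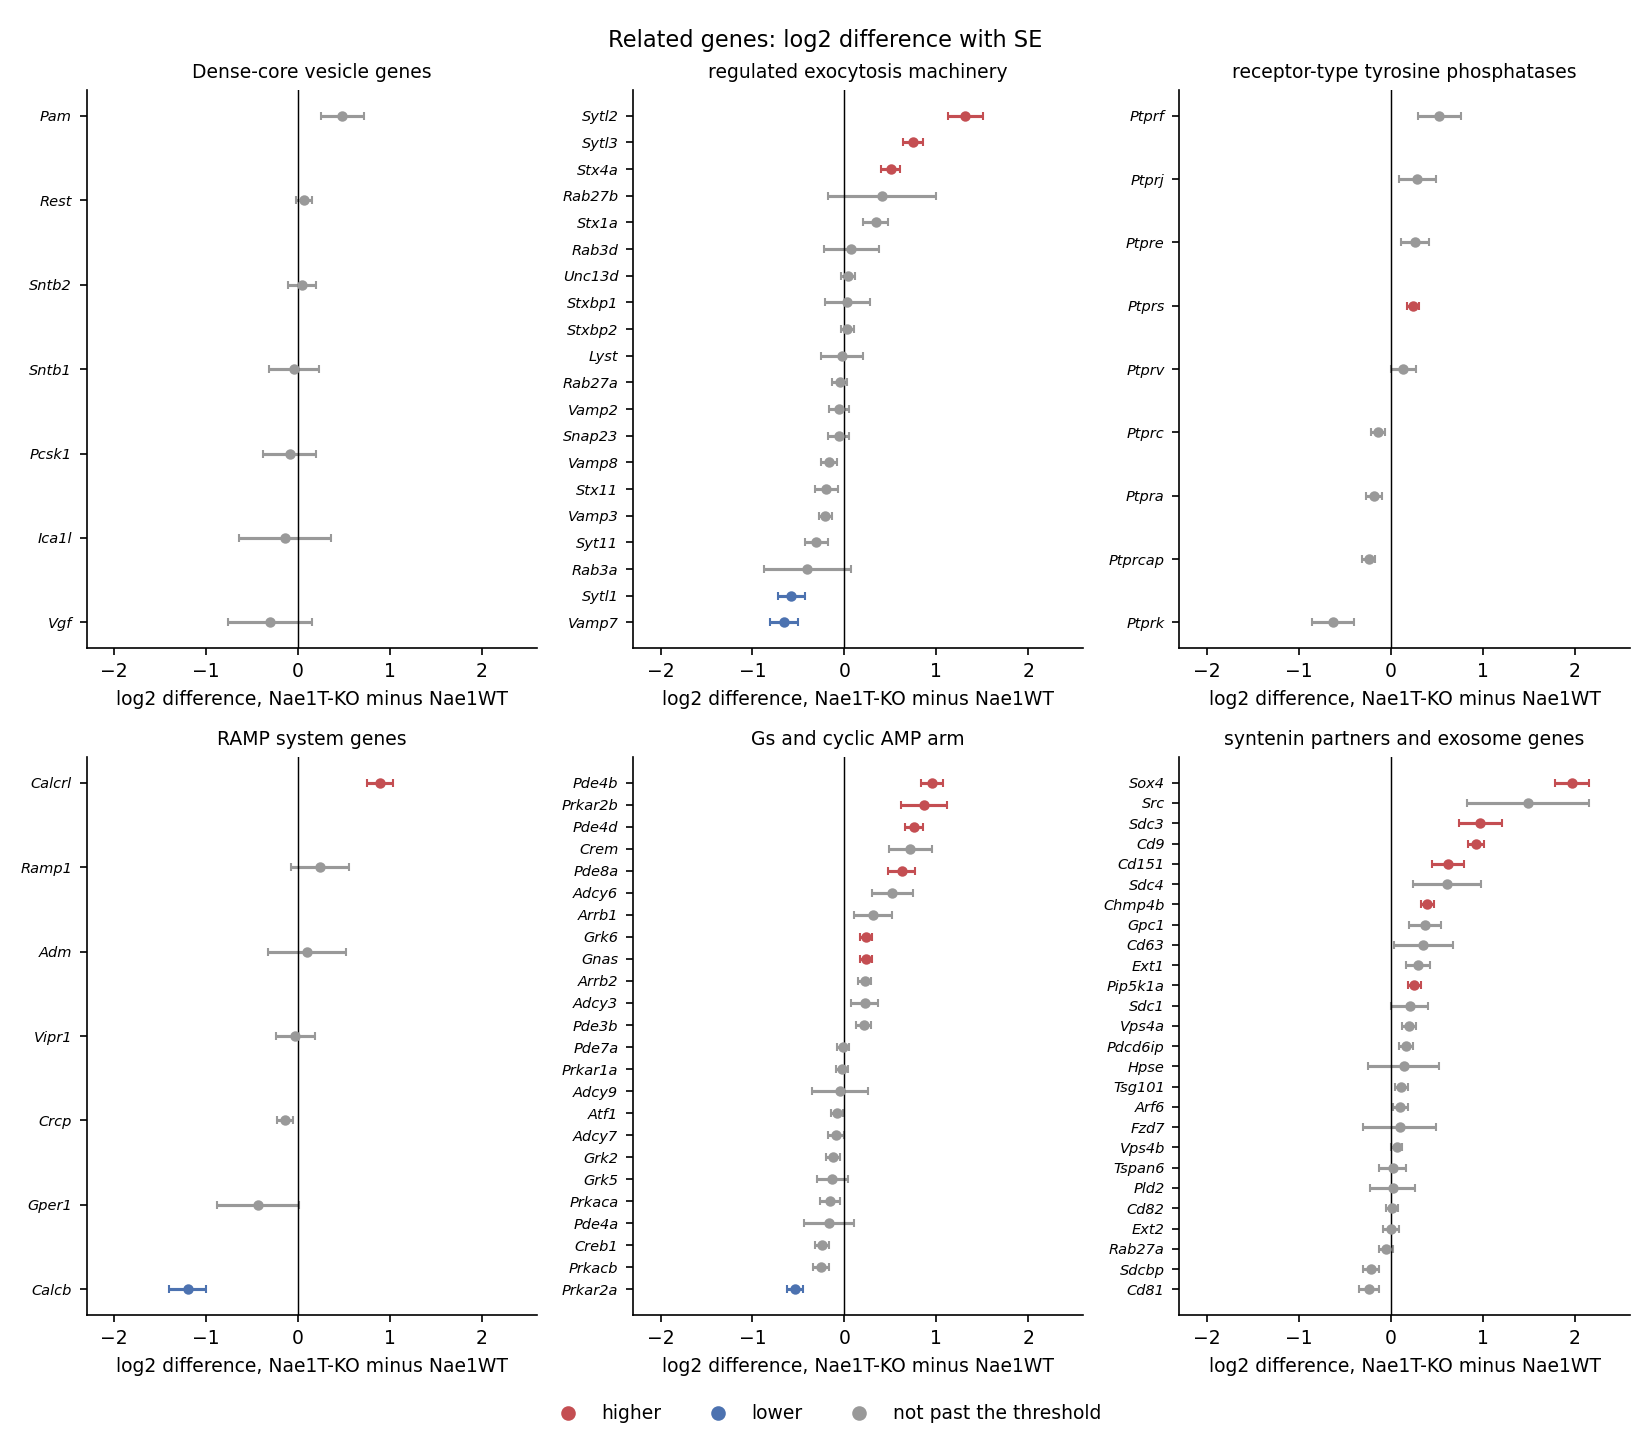
Log2 difference, Nae1T-KO minus Nae1WT, with SE for each tested gene of the 6 lists around Ptprn (top row), Ramp3 and Sdcbp2 (bottom row); red is called higher, blue lower, grey not past the threshold. The phosphatase panel includes Ptprcap, which is no phosphatase. Dense-core vesicle genes hold no called gene, and Sox4 at 1.97 has the largest value shown.

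The genes whose values over the 6 libraries were most like those of Ptprn, by Pearson's r of log2 values, were Plekho1 (0.998), Trim8 (0.997), Hdc (0.996), Nqo1 (0.994) and Fosl1 (0.994). Nqo1, a quinone reductase, had 167, 165 and 187 normalized counts in Nae1T-KO and 14.7, 26.1 and 21.3 in Nae1WT libraries. Fosl1 encodes an AP-1 subunit and Hdc the enzyme that makes histamine. Like Ptprn, all 5 had their highest Nae1WT value in replicate 2.

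For Ramp3 they were Sytl3 (0.998), Palm (0.997), Tiparp (0.996), Havcr2 (0.994) and Ccdc71l (0.994). Havcr2, which encodes the inhibitory receptor TIM-3, had 148, 145 and 148 normalized counts in Nae1T-KO and 47.9, 53.3 and 78.4 in Nae1WT libraries. All 5 had their highest Nae1WT value in replicate 3, as Ramp3 did. For Sdcbp2 they were Rgs2 (0.997), Gabarapl1 (0.997), H2-T22 (0.997), Phlda1 (0.996) and Ldhb (0.996). Rgs2, a regulator of G-protein signalling, had 1140, 1002 and 1044 against 523, 614 and 535. These genes were picked for their likeness over 6 libraries in which most of the spread is the gap between groups, so r is a description. The highest Nae1WT replicate shared with Ptprn or Ramp3 was favoured by the same choice and is a description too. Pearson's r leaves size aside: the differences ran from 1.16-fold for Trim8 to 8.33-fold for Nqo1. Trim8 and Palm were not called (limma adjusted p = 0.054 and 0.0597).

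Sums of other markers moved with the groups for some cell types. CD4 T cell markers summed to 849 to 1077 normalized counts in Nae1T-KO and 465 to 646 in Nae1WT libraries, with 0 of 10 called. Il13 was highest, at 245 to 669 against 83.5 to 203, without overlap. Cd40lg (28.2 to 38.4 against 14.6 to 22.1) and Il5 (24.6 to 31.3 against 9.90 to 18.8) did not overlap either. The other genes of that list overlapped, Cd4 among them, at 20.1 to 118 against 20.9 to 119. NK and gamma-delta T cell markers summed to 722 to 924 against 1314 to 1664, mostly Eomes, with 1 of 2 tested called lower. Sums of B cell (219 to 623 against 242 to 372) and erythroid markers (203 to 2058 against 145 to 654) overlapped. Epithelial sums overlapped too (89.5 to 119 against 57.5 to 101), while Cldn4 in that list was called higher, at 22.2 to 38.03 against 3.14 to 16.0 (limma adjusted p = 0.0382). Myeloid and dendritic cell sums ran from 203 to 241 against 175 to 215 and overlapped. Zbtb46, the gene of that list with the highest mean over the 6 libraries, moved against the rest. Each other gene of the list in the table had a higher mean in Nae1T-KO. In that list Zbtb46 was called lower, at 41.4 to 82.8 against 112 to 135, and Xcr1 higher, at 10.1 to 17.6 against 2.09 to 4.91 (limma adjusted p = 0.0199 and 0.0350). Cd68 was at 55.9 to 82.8 against 42.9 to 46.4, Itgam at 9.69 to 11.2 against 0 to 4.57 and Cd14 at 3.03 to 13.2 against 0 to 2.28, each without overlap. Lyz2, at 16.8 to 54.6 against 13.6 to 18.4, overlapped, as did Itgax and Flt3. Stromal markers summed to 9717 to 12445 against 12957 to 14665, almost wholly through Thy1, which mouse T cells express and which was called lower (limma adjusted p = 0.0102). Two-group ranges of Col1a2, too low to test, were 7.93 to 14.1 against 0 in each Nae1WT library. Acta2 was at 10.1 to 24.6 against 3.14 to 9.82, also without overlap (limma adjusted p = 0.100). Col1a1, Pdgfrb and Vim overlapped. The part of other cells in the values of Ptprn, Ramp3 and Sdcbp2 was not tested.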

How the data were processed

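RNA was sequenced from 6 libraries of mouse CD8+ T cells, 3 Nae1T-KO and 3 Nae1WT. Per the submitters' processing notes, bcl2fastq, HISAT2 and DESeq2 1.42.0 were used with build mm10; neither the read counter and its annotation nor its use of strand is known from the sources used here. The deposited table holds a normalized count (a signal of 0 or more) per gene and library. Values were whole multiples of one step in each library (tolerance 0.001), which gave back the reads, about 15628300 to 25444700 per library; for Nae1T-KO replicate 3 the step is so near 1 that this is less certain.

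Genes with at least 10 normalized counts in at least 3 libraries (13819) entered limma 3.58.1 (trend, robust) as log2(normalized count + 1) in R 4.3.3, two-sided, with Benjamini-Hochberg adjusted p under 0.05 over all tested genes; the fit was checked on simulated data. Ptprn, Ramp3 and Sdcbp2, the gene lists and the rules were chosen with earlier results of these data known. The rule for naming genes took Nae1, Uba3, the 3 genes, 15 partners whatever their test, up to 4 called genes per list, the nearest and the called genes within 500 kb, and the 5 most alike genes each. Ptprf, Ptprk, Ptprcap, Pcsk1, Rest, Chga, Ptprc, Srxn1 and the markers were added for their role or after their values were seen. Exon lengths came from GENCODE M21 (12829 of 13819 tested genes matched), promoter windows from RefSeq GRCm38.p6. Replicate pairs differed beyond counting noise (chi-square per degree of freedom 8.51 to 23.7). Libraries sharing a replicate number did not deviate together (r = -0.13, -0.18 and -0.27). With 3 libraries per group this cannot settle whether the numbers pair samples, which the labels do not say. Blocks by number were therefore run as alternatives only. The 19 alternatives were total-count, upper-quartile and TMM scaling, pseudocounts of 0.5 and 5, no filter, a filter at 50, the count tools limma-voom, edgeR 4.0.16 and DESeq2 1.42.0 run on reads, blocks by replicate number, sex, and each library left out.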

Additional observations from a re-analysis of the deposited data

How the results depend on the processing

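The log2 differences of Ptprn, Ramp3 and Sdcbp2 moved by less than 1 SD in 19 of 19 alternatives each, from 3.53 to 4.25, from 2.30 to 2.95 and from 2.20 to 2.56. Under total-count scaling 1176 genes were called higher and 622 lower, against 903 and 854 as reported. With sex as a covariate 772 genes were called higher and 768 lower, with 12 and 6 related genes. Leaving out 1 library gave 467 to 940 genes higher and 377 to 850 lower, and 9 to 16 related genes higher and 2 to 4 lower, against 17 and 4 as reported; fewer samples enter each fit. With a replicate block by the numbers in the titles, 513 genes were called higher and 455 lower, with 9 and 2 related genes. With a replicate block by the library names, on 4 libraries, the counts were 157 and 96, with 5 and 0 related genes; this block lost the calls of Sytl2, Sytl3, Stx4a, Calcb, Prkar2a and Chmp4b (limma adjusted p = 0.0625, 0.0695, 0.155, 0.124, 0.0577 and 0.117), among others. At an unadjusted p under 0.05 this limma fit had 2333 genes. Signs turned for 4 named genes that were not called, on leaving out 1 library: log2 differences ran from -0.015 to 0.093 for Uba3, lowest without Nae1T-KO replicate 3, from -0.082 to 0.43 for Ramp1, lowest without Nae1T-KO replicate 3, from -0.17 to 0.40 for Adm, lowest without Nae1WT replicate 3, and from -0.0071 to 0.071 for Dnajb2, lowest without Nae1WT replicate 2. The cause was not tested. Reads of Ptprn, Ramp3 and Sdcbp2 in Nae1WT, 13 to 96 per library, limit the precision of their folds.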
